A study of Mus musculus with 13 samples.

Results

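The 60 genes described here encode kinesins, cytoplasmic dynein and dynactin, the motor proteins that move along microtubules and the complex that helps dynein to do so. They are the mouse gene symbols beginning with Kif and a digit, Kifc, Dync, Dynl or Dctn that had at least 1 TPM (a transcript abundance per length and library size) in at least 4 libraries. The pattern matched 77 of the 35967 symbols in the table, and 60 of these passed the filter on low values. RNA was sequenced from glomeruli of male wild-type Balb/c mice that received 2.0 mg of rabbit IgG intraperitoneally, 1 library per mouse. Control mice (n = 5) received control IgG, and the control mice of both days form 1 group whose individual days are not stated. The other mice received rabbit anti-THSD7A IgG, which induces experimental membranous nephropathy (MN), and their glomeruli were taken at day 1 (n = 4) or day 5 (n = 4). THSD7A is a podocyte protein, and the antibody was given to all MN mice in the same amount, so the model is a passive transfer of rabbit antibody. Control and MN mice were both described as wild-type. Glomeruli were collected with magnetic beads perfused through the kidney, and the libraries hold RNA of all cells of the isolate.

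Kinesins mostly walk toward the plus end of microtubules, and dynein walks toward the minus end and needs the dynactin complex and an adaptor to carry cargo far. Some kinesins work in transport of vesicles and organelles, whereas others build the spindle, move chromosomes or divide the cell and are made mainly by cycling cells. Podocytes, the glomerular cells with long microtubule-based major processes, rarely divide in the adult kidney. The genes were therefore grouped by role into mitotic kinesins (12 genes), transport kinesins (11), cilium kinesins (4), other kinesins (5), the subunits of cytoplasmic dynein-1 (5) and dynein-2 (4), dynein light chains (12), dynactin (6) and 1 pseudogene. This grouping placed *Kif2a*, a relative of the mitotic *Kif2c*, with the other kinesins. At day 5, 9 of the 12 mitotic kinesins were higher in MN, whereas 0 of the 48 other genes were, against 2.42% of all tested genes called higher. Of the 9, *Kif11*, *Kif18b* and *Kif4* passed the filter only through the day 5 libraries. A transport kinesin, *Kifc2*, and a dynein light chain, *Dynll2*, were lower. *Dynll2* was also the only one of the 60 genes called at day 1.

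Differences were tested with limma, all 3 groups in 1 fit and p-values adjusted over the 14322 genes tested. A gene was called if its adjusted p was below 0.05 and its log2 fold change exceeded 0.5 in either direction. Fold changes are differences of log2(scaled TPM + 0.5), which makes them smaller than the true change where TPM is low. The labelled tissue was checked against marker lists. The summed TPM of 8 podocyte markers lay between 7580 and 10200 in control libraries, 8380 and 10300 at day 1, and 9140 and 9820 at day 5, and 1 of them was called at day 5 (*Cdkn1c*, higher), with 3 at an unadjusted p under 0.05. *Synpo*, the actin-associated synaptopodin, lay at 1450 ± 91.6 TPM in control and 1030 ± 106 TPM at day 5, without overlap and short of the fold threshold (-0.46, adjusted p = 0.00197). Of 8 endothelial markers 0 were called at day 5 (3 at an unadjusted p under 0.05 in limma), but all 8 fold changes were positive (median 0.20). Among them, *Emcn* had 1310 ± 105 TPM in control and 1560 ± 44.1 TPM at day 5. It did not overlap and was short of the fold threshold (0.29, adjusted p = 0.0127). Of 5 tested mesangial markers 1 was called (*Myl9*, higher at day 5). All 10 tubular markers had positive fold changes at day 1 (median 0.73), with 0 called and 7 at an unadjusted p under 0.05, and summed to 413 to 1030 TPM in control, 809 to 1410 at day 1 and 589 to 738 at day 5. Over all tested genes, 3.21% were called at day 5 (2.42% higher) and 0.0908% at day 1. Fewer cells of a type and less RNA per cell cannot be told apart in these libraries.

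Promoters of mitotic kinesins often hold 2 elements of cell-cycle genes. One is the CHR element with the core TTTGAA, through which repressor and activator complexes bind the genes of late cell-cycle phases. The other is the CCAAT box, bound by NF-Y. Both were searched on either strand in the RefSeq promoter windows of mouse assembly GRCm38.p6, 250 bases before and 50 bases after the annotated start. The table matched 39 of the 60 genes and 11 of the 12 mitotic kinesins, all but *Kif20a*. The stretches below run from 90 bases before the start to 30 bases from it, 5′ to 3′ on the strand of the gene, with matches to the CHR core (TTTGAA or, on the other strand, TTCAAA) and to the CCAAT box (CCAAT or ATTGG) in capitals. They come from the reference assembly and not from Balb/c mice. The first 5 belong to the mitotic kinesins with the highest fold changes at day 5 among those with a window, *Kif20b* holds the CHR core in tandem, and *Kif18a* is the mitotic kinesin without a match.
Kif18b (chr11:102925095-102925214, minus strand): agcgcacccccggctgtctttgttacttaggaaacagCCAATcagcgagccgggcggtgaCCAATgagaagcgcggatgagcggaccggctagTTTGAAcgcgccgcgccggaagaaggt
Kif11 (chr19:37376292-37376411, plus strand): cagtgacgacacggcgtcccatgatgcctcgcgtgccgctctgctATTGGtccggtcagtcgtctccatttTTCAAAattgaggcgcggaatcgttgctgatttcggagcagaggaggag
Kif23 (chr9:61946770-61946889, minus strand): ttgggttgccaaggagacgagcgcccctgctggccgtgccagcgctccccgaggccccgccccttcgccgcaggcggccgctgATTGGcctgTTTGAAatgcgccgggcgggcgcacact
Kif4 (chrX:100625975-100626094, plus strand): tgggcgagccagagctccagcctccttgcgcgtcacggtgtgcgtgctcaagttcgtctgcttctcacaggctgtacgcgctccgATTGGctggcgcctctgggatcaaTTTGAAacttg
Kif22 (chr7:127042391-127042510, minus strand): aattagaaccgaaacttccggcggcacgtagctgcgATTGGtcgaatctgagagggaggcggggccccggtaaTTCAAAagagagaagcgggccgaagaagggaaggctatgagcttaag
Kif20b (chr19:34922268-34922387, plus strand): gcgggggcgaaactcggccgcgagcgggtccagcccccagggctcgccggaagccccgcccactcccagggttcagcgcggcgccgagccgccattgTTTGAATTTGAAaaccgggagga
Kif18a (chr2:109280648-109280767, plus strand): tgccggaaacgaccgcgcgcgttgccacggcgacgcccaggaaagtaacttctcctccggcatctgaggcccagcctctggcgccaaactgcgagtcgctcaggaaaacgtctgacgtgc

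The CHR core was present in 10 of the 11 mitotic kinesin windows (90.9%), in 1 of 34 windows of the other genes (2.94%) and in 17.9% of all 32851 windows. The CCAAT box was present in 7 of the 11 (63.6%), against 35.3% of the windows of the other genes and 37.4% of all windows. Both stood together in 7 of the 11 (63.6%), in 0 of the 34 other windows and in 6.95% of all windows. Within the shorter stretch shown, 8 of the 11 held the whole CHR core, between positions -19 and 20 from the start, against 6.52% of all windows. No base belonged to both motifs. A match describes letters in a window and is not a measured binding site. The windows of *Kifc1* and *Kifc5b* are close copies of each other and count as separate windows here. Some of the other genes, such as *Kif1b*, have a window for each of several annotated starts. Such windows can overlap, and each was counted.

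**Figure D1:**
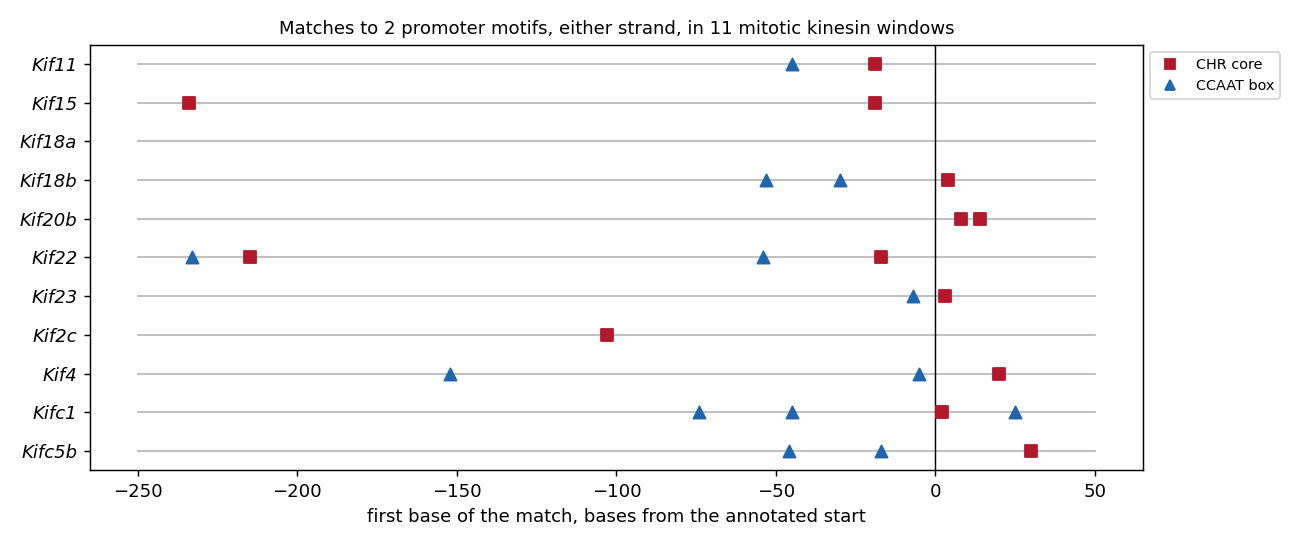
Positions of matches to the CHR core (squares) and the CCAAT box (triangles) in the promoter windows of 11 mitotic kinesins, as the first base of the match in bases from the annotated start (vertical line). The horizontal lines span the window from 250 bases before to 50 after the start. The CHR core is present in 10 of the 11 windows, mostly within 20 bases of the start, and *Kif18a* has neither motif.

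At day 5, 11 of the 60 genes were called, 9 higher and 2 lower. Over all tested genes, 3.21% were called at day 5, 2.42% higher and 0.789% lower. The day 5 libraries did not overlap with the control libraries in 8 of the 60 genes that were higher and 8 that were lower, against 10.8% of all tested genes (5.07% higher and 5.71% lower). The 8 higher were mitotic kinesins, and the 8 lower belonged to other groups. All 9 genes called higher were mitotic kinesins. The fold changes of the 12 mitotic kinesins were positive and lay between 0.69 and 2.49, with a median of 1.65, whereas the median of all tested genes was 0.00. *Kif11*, *Kif18b* and *Kif4* reached 1 TPM only in the 4 day 5 libraries, so they passed the filter only through the group in which they were high. Without the filter, 13 of 13 genes grouped as mitotic kinesins had positive fold changes (median 1.48). Of these, 8 were called higher, against 1.44% of all 23350 genes above 0 in any library. These counts depend on the grouping. *Kif2a*, a relative of *Kif2c* grouped with the other kinesins, had 14.1 ± 0.95 TPM in control and 14.0 ± 1.80 TPM at day 5 (0.02, adjusted p = 0.944). *Kif2b*, grouped likewise, was listed at 0 throughout.

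*Kif18b* encodes a kinesin-8 that controls the length of astral microtubules in mitosis (chr11:102796348-102815956, GRCm39). Its TPM was 0.306, 0.241, 0.171, 0.377 and 0.0982 in control libraries, 0.378, 0.193, 0.122 and 0.242 at day 1, and 3.06, 4.29, 4.92 and 2.42 at day 5. The day 5 libraries stood apart from all others, and the means differed 15.4-fold (log2 fold change 2.49, SE 0.24, adjusted p = 5.5e-05). *Kif11* (chr19:37364799-37410307), the motor that pushes spindle poles apart, measured 0.633, 0.452, 0.613, 0.864 and 0.261 TPM in control libraries and 0.652, 0.301, 0.457 and 0.772 TPM at day 1. At day 5 it measured 3.83, 5.61, 7.16 and 3.95 TPM, again with no overlap (2.41, SE 0.24, adjusted p = 6.1e-05). *Kif4* (chrX:99669343-99770946) encodes a chromokinesin that works with PRC1 at the central spindle. It was at 0.579, 0.313, 0.388, 0.582 and 0.239 TPM in control libraries, at 0.438, 0.214, 0.328 and 0.455 TPM at day 1 and at 2.23, 2.88, 4.62 and 2.65 TPM at day 5. The difference from control was 1.96 (SE 0.23, adjusted p = 1.9e-04). These 3 transcripts were under 1 TPM in every control and day 1 library.

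*Kif23*, *Kif20a* and *Kif20b*, which act in cytokinesis, were above 1 TPM in every library. *Kif23* (chr9:61823187-61854074), the motor subunit of centralspindlin, had 2.16, 3.61, 2.08, 3.56 and 1.90 TPM in control libraries and 4.14, 1.49, 3.06 and 4.75 TPM at day 1. It had 11.1, 13.1, 29.0 and 8.48 TPM at day 5, with replicate 3 far above the others (log2 fold change 2.25, SE 0.34, adjusted p = 0.00129). Even the lowest day 5 library exceeded every control and day 1 library. *Kif20a*, which brings Aurora B to the central spindle, had 1.75, 1.61, 2.17, 3.18 and 2.25 TPM in control libraries, 2.86, 1.56, 1.74 and 1.20 TPM at day 1, and 9.07, 13, 14.7 and 9.21 TPM at day 5. Its fold change was 2.18 (SE 0.23, adjusted p = 8.0e-05) without overlap. Of the 31-base words in the *Kif20a* transcripts, 48.2% also occur in transcripts of other genes, most of them in *Cdc23*, so its level is less certain than the others. *Kif20b*, a relative that also acts late in cytokinesis, had 1.27 to 6.62 TPM in control libraries and 4.51 to 10.5 TPM at day 5. These ranges overlapped, and *Kif20b* was not called (0.81, SE 0.36, adjusted p = 0.222).

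Motors that act on chromosomes and kinetochores gave both clear and uncertain differences. *Kif22* (chr7:126626898-126641643), which pushes chromosome arms away from the poles, had 2.76, 3.07, 2.80, 2.71 and 1.34 TPM in control libraries, 1.82, 2.09, 2.42 and 1.21 TPM at day 1, and 7.50, 10.2, 11.5 and 10.1 TPM at day 5. All day 5 values were above all others (1.82, SE 0.21, adjusted p = 1.53e-04). *Kif18a* (chr2:109111083-109173023), which dampens chromosome movements at the metaphase plate, had 1.05, 0.972, 1.14, 1.10 and 1.18 TPM in control libraries, 1.16, 0.983, 0.659 and 1.18 TPM at day 1, and 2.20, 2.04, 2.01 and 1.93 TPM at day 5. The groups did not overlap and the fold change was 0.71 (SE 0.17, adjusted p = 0.0282). *Kif2c* (chr4:117016830-117039836), a microtubule depolymerase of the centromere, had 0.303, 2.33, 1.42, 0.845 and 0.718 TPM in control libraries, 1.56, 0.264, 1.20 and 1.01 TPM at day 1, and 3.16, 4.72, 6.07 and 1.69 TPM at day 5. Its lowest day 5 library lay below the highest control library (1.48, SE 0.41, adjusted p = 0.0489).

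*Kifc1*, a minus-end motor that focuses spindle poles, and *Kifc5b* (chr17:27135842-27151557), its near copy in the mouse, share 51.9% and 44.9% of their 31-base words with other transcripts, mainly each other's. Reads could therefore have been split between them. *Kifc5b* had 2.00, 1.93, 2.33, 2.95 and 1.75 TPM in control libraries, 2.20, 1.31, 2.20 and 2.10 TPM at day 1, and 3.59, 3.69, 4.78 and 2.91 TPM at day 5. A single control library overlapped with day 5 (0.69, SE 0.18, adjusted p = 0.0413). *Kifc1* had 0.405 to 2.68 TPM in control libraries and 2.78 to 4.54 TPM at day 5, without overlap but short of the threshold (1.40, SE 0.44, adjusted p = 0.0794). The sum of both was 3.46 ± 0.924 TPM in control (SD, n = 5), 3.43 ± 0.957 at day 1 (n = 4) and 7.47 ± 1.46 at day 5 (n = 4), with every day 5 sum (6.15 to 9.32) above every control sum (2.39 to 4.61). *Kif15*, which can share the work of *Kif11* in the spindle, had 0.697 to 4.87 TPM in control libraries and 2.69 to 7.67 TPM at day 5 and was not called (0.94, SE 0.39, adjusted p = 0.202).

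**Figure D2:**
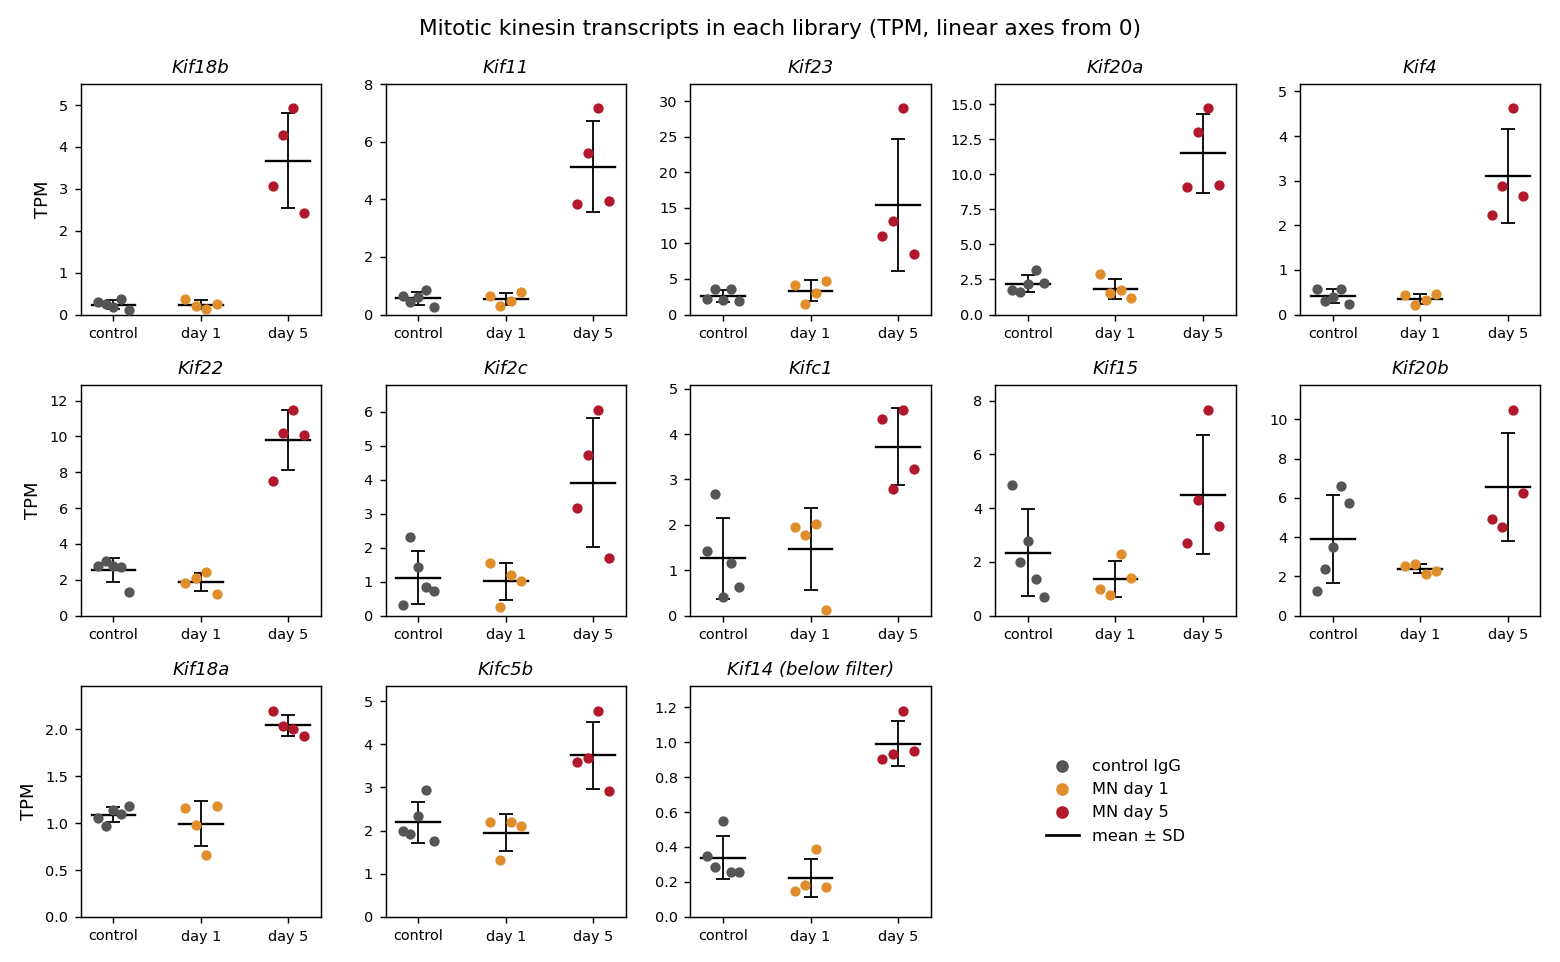
TPM of 13 mitotic kinesins in each library (points), with the mean and SD of the 5 control IgG, 4 day 1 MN and 4 day 5 MN libraries; each axis is linear and starts at 0. Control and day 1 points share a range, day 5 points of *Kif18b*, *Kif11*, *Kif23*, *Kif20a*, *Kif4* and *Kif22* lie above them, and *Kif14* stayed below the filter.

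Just below the filter was *Kif14*, a kinesin that recruits citron kinase in cytokinesis. It had 0.254 to 0.547 TPM in control libraries and 0.905, 0.932, 1.18 and 0.948 TPM at day 5, so that 1 library reached 1 TPM. In the fit without a filter its fold change was 0.85 (SE 0.13, adjusted p = 0.00298).

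Summed over the 12 mitotic kinesins, TPM lay between 16.8 and 25.3 in control libraries, 13.6 and 20.7 at day 1, and 56.2 and 107 at day 5. Day 5 replicate 3 had the highest value for 11 of the 12 genes. The calls of *Kif11*, *Kif18b*, *Kif20a*, *Kif22*, *Kif23* and *Kif4* were kept without each of the 13 libraries in turn. In these fits the filter of 1 TPM in 4 libraries was still set on all 13 libraries. Without a day 5 library, *Kif11*, *Kif18b* and *Kif4* would otherwise have failed it. *Kif18a* was called in 6 of these 13 fits (adjusted p 0.0185 to 0.0868), namely without control replicate 5, any of the day 1 libraries or day 5 replicate 3. *Kifc5b* was called in 5 (adjusted p 0.0302 to 0.111), without control replicate 4, day 1 replicate 1, 2 or 3, or day 5 replicate 4. *Kif2c* was called in 3 (adjusted p 0.0242 to 0.145), without control replicate 2, day 1 replicate 2 or day 5 replicate 4. Other choices of pseudocount, scaling, filter, variance model and fitted samples also touched these calls. *Kif2c* kept its call in 1 of 8 such alternatives, the pseudocount of 1 (adjusted p 0.0393 to 0.135), *Kifc5b* in 5 of 9 (0.0247 to 0.126) and *Kif18a* in 6 of 8 (0.0023 to 0.0878). No direction changed in any of these fits.

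Genes that work with these kinesins in mitosis were read from a separate list of 19. At day 5, 17 of them were called higher and 0 lower, with a median fold change of 1.73, against 2.42% of all tested genes called higher. Of the 17, *Cenpe*, *Spdl1* and *Kntc1* passed the filter only through the day 5 libraries, the group in which they were high. *Prc1*, the microtubule bundler that recruits KIF4, had 2.31 ± 1.17 TPM in control and 24.6 ± 7.21 TPM at day 5 (3.25, adjusted p = 4.5e-05). *Racgap1*, the partner of KIF23 in centralspindlin, had 4.44 ± 2.30 and 17.6 ± 3.91 TPM (2.01, adjusted p = 0.00222). *Tpx2*, which loads KIF11 and KIF15 onto spindle microtubules, had 1.54 ± 0.489 and 10.8 ± 2.15 TPM (2.52, adjusted p = 1.7e-05). The kinesin-7 of the kinetochore, *Cenpe*, which the symbol pattern does not match, had 0.571 ± 0.297 and 2.35 ± 0.763 TPM (1.43, adjusted p = 0.0113). The 2 genes not called were *Numa1* (-0.12, adjusted p = 0.31) and *Zw10* (0.01, adjusted p = 0.986), both of which also act in interphase cells. At day 1, limma called 0 of the 19, and 3 had an unadjusted p under 0.05.

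General markers of cycling cells moved with the mitotic kinesins. *Mki67* had 1.01 ± 0.542 TPM in control and 11.0 ± 3.35 TPM at day 5 (2.98, adjusted p = 3.3e-05), and 3 of the 4 markers in the list were called higher, against 2.42% of all tested genes. One of the 3, *Ccnb1*, reached 1 TPM only in the 4 day 5 libraries and so passed the filter only through them. The summed TPM of 8 leukocyte markers was 26.4 to 47.0 in control libraries, 29.8 to 56.5 at day 1 and 25.9 to 49.7 at day 5. Most of this sum was *Lyz2* (23.7 of 35.8 TPM in the control mean). Of the 8 markers 5 passed the filter, 0 were called in limma and 1 had an unadjusted p under 0.05 at day 5. All 5 fold changes were positive at day 5 (median 0.19). Below the filter, *Adgre1* had 0.125 ± 0.0804 TPM in control and 0.663 ± 0.651 TPM at day 5, without overlap. *Cd79a* and *Cd3e*, also below it, overlapped. *Ptprc*, the common leukocyte antigen, had 2.40 ± 0.981 TPM in control and 4.03 ± 0.973 TPM at day 5 (0.71, adjusted p = 0.131). Which glomerular cells carried the mitotic kinesin transcripts was not tested.

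At day 1, 1 of the 60 genes was called, against 0.0908% of all tested genes (0.0559% higher and 0.0349% lower). The mitotic kinesins lay between -0.45 and 0.28, 4 above and 8 below 0, with a median of -0.07. In limma 0 of the 12 were called, and 0 had an unadjusted p under 0.05. The day 1 libraries lay wholly below the control libraries in 3 of the 60 genes (*Dynll2*, *Dctn5* and *Kif3b*) and wholly above them in 0, against 4.22% of all tested genes in either direction (0.908% higher and 3.32% lower). Both days were also compared with each other in the same fit. Between day 5 and day 1, 9 of the 60 genes were called, 7 higher and 2 lower, against 1.81% of all tested genes (1.41% higher and 0.398% lower). The 7 higher were *Kif18b* (2.48, adjusted p = 1.19e-04), *Kif11* (2.41, adjusted p = 1.25e-04), *Kif20a* (2.37, adjusted p = 1.1e-04), *Kif22* (2.12, adjusted p = 1.19e-04), *Kif4* (2.03, adjusted p = 3.24e-04), *Kif23* (1.97, adjusted p = 0.00874) and *Kif18a* (0.78, adjusted p = 0.0428). *Kif18a* kept this call in 2 of 13 fits that left out a library, without control replicate 2 or 5 (adjusted p 0.0396 to 0.115 over the 13), and in 4 of 8 other alternatives (adjusted p 0.00257 to 0.0918). The day 5 and day 1 libraries did not overlap in 13 genes that were higher at day 5 and 3 that were lower, against 11.0% of all tested genes (6.12% higher and 4.93% lower). All 12 mitotic kinesins were among the 13, *Kif11*, *Kif18b* and *Kif4* under the reservation on the filter given above. The other was *Dctn5*, and the 3 lower were *Dynll2*, *Kif21a* and *Kifc2*.

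**Figure D3:**
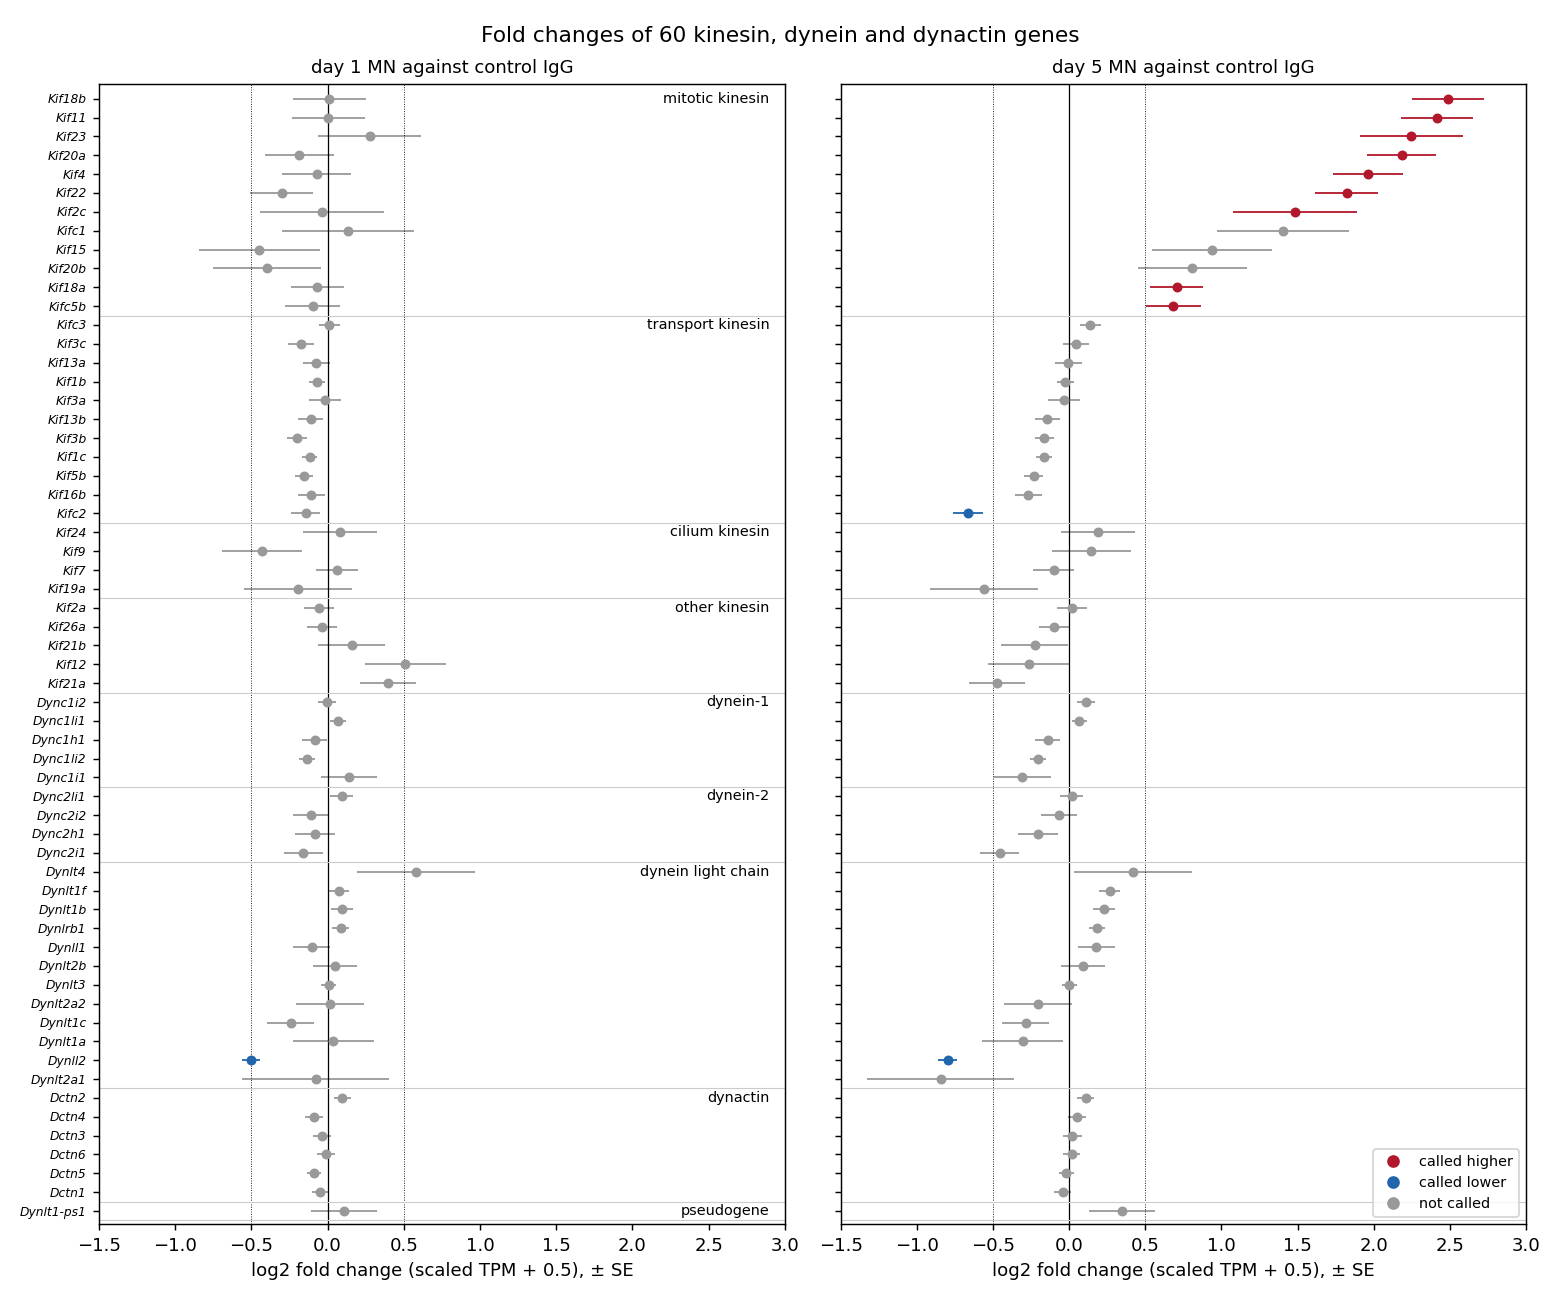
Log2 fold changes (points, with SE bars) of the 60 genes at day 1 (left) and day 5 (right) against control IgG on the log2(scaled TPM + 0.5) scale, grouped by role; dotted lines mark the fold threshold of 0.5. At day 5 the mitotic kinesins lie between 0.69 and 2.49, and the other genes lie between -0.84 and 0.42, with *Dynll2* and *Kifc2* called lower.

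The transport kinesins were far more abundant than the mitotic ones. Their 11 transcripts summed to 679 to 722 TPM in control libraries, 596 to 676 TPM at day 1 and 635 to 665 TPM at day 5. The group median fold change was -0.11 at day 1 and -0.14 at day 5. At day 5, 1 of the 11 was called, lower, against 0.789% of all tested genes. In 4 of the 11 all day 5 libraries lay below all control libraries, against 5.71% of all tested genes. Of the 11 fold changes, 10 were negative at day 1 and 9 at day 5. In limma 3 of the 11 had an unadjusted p under 0.05 at day 1 and 5 at day 5.

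The gene called was *Kifc2* (chr15:76543981-76552402), which encodes a minus-end kinesin first described in neurons. It had 11.8, 10.2, 11.9, 9.87 and 9.20 TPM in control libraries, 8.29, 9.48, 10.3 and 8.82 TPM at day 1, and 6.26, 6.70, 6.18 and 6.19 TPM at day 5. Every day 5 value was below every control and day 1 value. The difference from control was -0.66 (SE 0.10, adjusted p = 0.00115) and was called without each library in turn (adjusted p 0.00142 to 0.00526). From day 1 to day 5 it was -0.52 (adjusted p = 0.016). That call was lost without day 1 replicate 2 or 3 or day 5 replicate 3 or 4 (-0.56 to -0.47 and adjusted p 0.0139 to 0.0547 over the 13 fits).

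The most abundant transport kinesins in control glomeruli were *Kifc3*, *Kif1c* and *Kif5b*, whose control ranges overlapped. *Kifc3*, a minus-end motor of epithelial membrane traffic and cell junctions, had 161 ± 7.32 TPM in control (SD, n = 5) and 173 ± 7.01 TPM at day 5 (n = 4) and was not called (0.14, adjusted p = 0.284). *Kif5b*, the ubiquitous heavy chain of conventional kinesin, had 155, 146, 160, 160 and 155 TPM in control libraries, 120, 130, 146 and 145 TPM at day 1, and 124, 124, 133 and 134 TPM at day 5. Its day 5 libraries lay below all control libraries (-0.23, SE 0.06, adjusted p = 0.0335), but the change was under the fold threshold. *Kif1c*, a motor of Golgi and podosome traffic, had 160 ± 9.32 and 139 ± 1.95 TPM, also without overlap (-0.16, adjusted p = 0.0702). *Kif16b*, which moves early endosomes, had 15.8 ± 0.698 and 12.7 ± 0.498 TPM (-0.27, adjusted p = 0.0989). *Kif13a* (-0.01) and *Kif13b* (-0.14), *Kif1b* (-0.02) and the kinesin-2 genes *Kif3a* (-0.03), *Kif3b* (-0.16) and *Kif3c* (0.05) had adjusted p-values of 0.17 or above at day 5. *Kifc3*, *Kif3c* and *Kif2a* share 30.5%, 38.5% and 42.1% of their 31-base words with other genes, which makes their levels less certain.

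**Figure D4:**
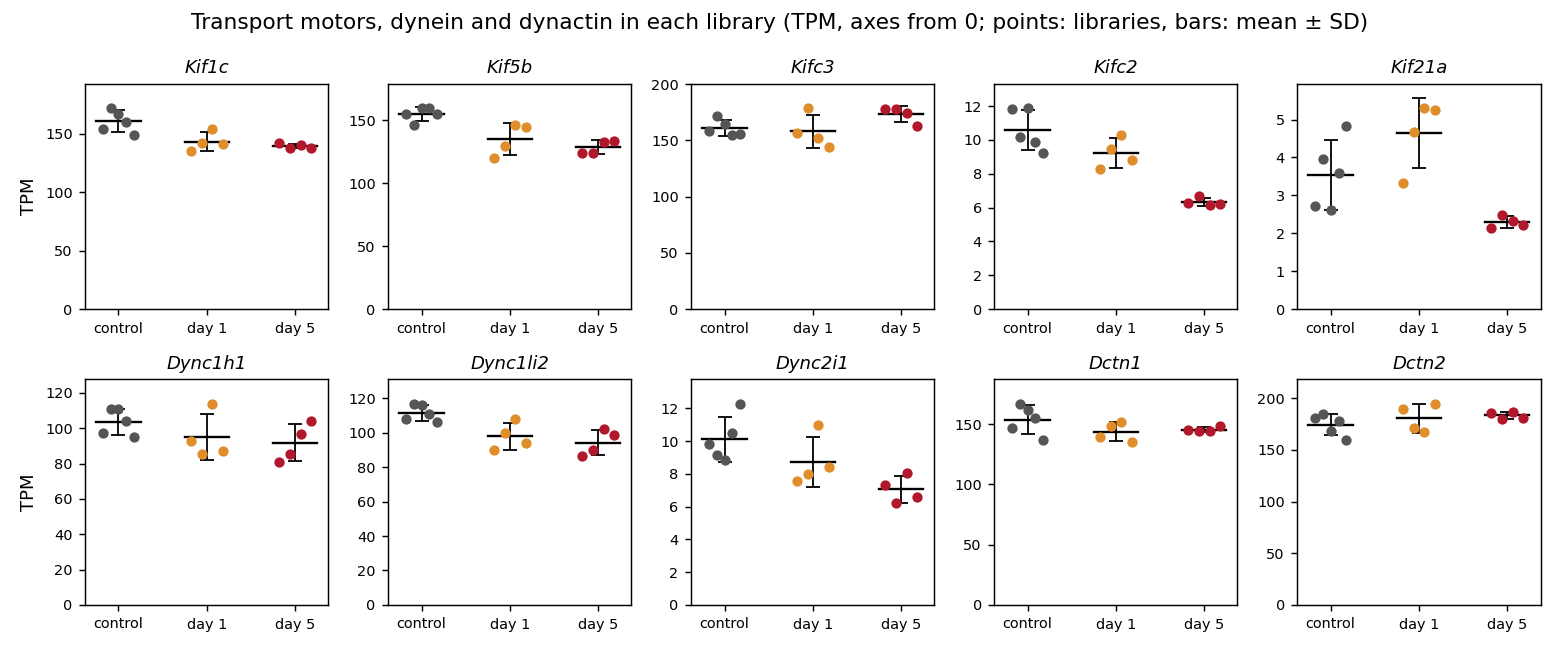
TPM of 10 transport kinesin, other kinesin, dynein and dynactin genes in each library (points), with the mean and SD of the control IgG (n = 5), day 1 MN (n = 4) and day 5 MN (n = 4) libraries on linear axes from 0. *Kifc2* lies at 9.20 to 11.9 TPM in control libraries and at 6.18 to 6.70 TPM at day 5, whereas *Kifc3*, *Dync1h1*, *Dctn1* and *Dctn2* overlap between the groups.

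The 5 *Dync1* genes encode the subunits of cytoplasmic dynein-1 other than its light chains, which are described below. They summed to 378 to 406 TPM in control libraries and 355 to 382 TPM at day 5. In limma 0 of the 5 were called in any comparison, and 1 had an unadjusted p under 0.05 at day 5. When the fold threshold was dropped, 14 of the 60 genes passed at day 5, against 6.12% of all tested genes, and that 1 gene was among them. *Dync1h1*, the heavy chain with the motor domain, had 104 ± 7.54 TPM in control and 91.9 ± 10.5 TPM at day 5, with overlapping libraries (-0.14, adjusted p = 0.377). *Dync1li2*, a light intermediate chain that holds cargo adaptors, had 108, 117, 116, 111 and 106 TPM in control libraries, 90, 100, 108 and 94.1 TPM at day 1, and 86.8, 90, 102 and 98.6 TPM at day 5. Its day 5 libraries lay below all control libraries (-0.20, SE 0.05, adjusted p = 0.0406) at a change under the fold threshold. The other light intermediate chain, *Dync1li1*, had 54.7 ± 1.24 and 56.0 ± 1.59 TPM (0.07, adjusted p = 0.515). The intermediate chains, which bind dynactin, differed in level, with *Dync1i2* at 109 ± 6.01 and 115 ± 6.32 TPM (0.11, adjusted p = 0.337) and *Dync1i1* at 16.2 ± 4.43 and 12.5 ± 1.59 TPM (-0.31, adjusted p = 0.398).

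Dynactin transcripts kept within a narrow range. The 6 genes summed to 656 to 725 TPM in control libraries, 671 to 682 TPM at day 1 and 687 to 715 TPM at day 5, and their day 5 fold changes lay between -0.04 and 0.11. Limma called 0 of them in any comparison, and 0 had an unadjusted p under 0.05 at day 1 or day 5 against control. *Dctn1*, the arm that binds microtubules and dynein, had 154 ± 11.9 TPM in control and 145 ± 1.64 TPM at day 5 (-0.04, SE 0.05). *Dctn2*, the shoulder subunit dynamitin, had 174 ± 10.1 and 183 ± 3.44 TPM (0.11, SE 0.06), and *Dctn3*, another shoulder subunit, had 123 ± 11.1 and 121 ± 4.84 TPM (0.02, SE 0.06). The pointed-end subunits *Dctn4* (0.05), *Dctn5* (-0.02) and *Dctn6* (0.02) had SEs of 0.05 to 0.06. At day 1, *Dctn5* had all 4 libraries below all control libraries (80.6 ± 3.68 against 88.5 ± 3.75 TPM), and it was not called (-0.09). Of 6 dynactin subunits that carry other symbols, among them *Actr1a* of the central filament, 0 were called in any comparison (day 5 median 0.04, 2 at an unadjusted p under 0.05). Of 22 tested adaptors and regulators of transport, 0 were called at day 5 (median -0.01, 3 at an unadjusted p under 0.05). In 3 of the 22, against 5.71% of all tested genes, all day 5 libraries lay below all control libraries. These were the kinesin light chains *Klc4* (48.7 ± 1.78 and 39.5 ± 0.812 TPM, -0.26, adjusted p = 0.00515, under the fold threshold) and *Klc2* (-0.21, adjusted p = 0.202) and the mitochondrial adaptor *Trak2* (-0.23, adjusted p = 0.106). The kinesin light chain *Klc1* (-0.08) and the dynein adaptor *Bicd2* (0.15) had adjusted p-values of 0.532 and 0.312.

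The dynein light chains included the most abundant genes of the 60. *Dynll1* and *Dynll2* encode the LC8 light chains, small proteins that dimerize and hold together dynein intermediate chains and many partners outside dynein. Their coding sequences are 267 bases long and 81.3% identical, and they differ at 50 positions, with a longest identical run of 16 bases. The first 90 coding bases of the canonical transcripts in the GENCODE annotation of GRCm39 are shown because a read of this region can be assigned to 1 of the 2 genes. Capitals mark the 18 differing bases.
Dynll1 (coding bases 1 to 90): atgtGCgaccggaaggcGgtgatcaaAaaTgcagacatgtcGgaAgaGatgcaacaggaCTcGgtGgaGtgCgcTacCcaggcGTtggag
Dynll2 (coding bases 1 to 90): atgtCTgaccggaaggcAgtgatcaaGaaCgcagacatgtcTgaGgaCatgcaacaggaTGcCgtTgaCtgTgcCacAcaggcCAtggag

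No 31-base word is shared between the transcripts of the 2 genes. *Dynll2* shares 2 such words (0.0434%) with any other gene, and *Dynll1* shares 36.8%, mostly with its neighbour *Coq5*.

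*Dynll2* (chr11:87870351-87889154) had 519, 523, 562, 512 and 523 TPM in control libraries, 325, 349, 410 and 364 TPM at day 1, and 283, 280, 300 and 321 TPM at day 5. All MN libraries lay below all control libraries, and all day 5 libraries lay below all day 1 libraries. The difference from control was -0.50 (SE 0.06, adjusted p = 0.00832) at day 1 and -0.80 (SE 0.06, adjusted p = 1.7e-05) at day 5, the second a mean level 0.562 times that of control. Day 5 was 0.30 below day 1 on the log2 scale (-0.30, adjusted p = 0.0286), which is under the fold threshold. The day 5 call was kept without each library in turn (-0.83 to -0.78). The day 1 change lay at the fold threshold. It was called in 9 of 13 fits and lost without control replicate 3 or 5 or day 1 replicate 1 or 2 (-0.55 to -0.45, adjusted p 0.00448 to 0.0491).

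*Dynll1* (chr5:115429984-115452006) had 471, 464, 412, 416 and 455 TPM in control libraries, 343, 412, 525 and 343 TPM at day 1, and 508, 485, 419 and 558 TPM at day 5. The groups overlapped, and the fold change was -0.10 at day 1 (adjusted p = 0.764) and 0.18 at day 5 (adjusted p = 0.457). The share of *Dynll2* in the summed TPM of the pair was 54.3% ± 2.15 in control (SD, n = 5), 47.5% ± 3.34 at day 1 (n = 4) and 37.7% ± 2.75 at day 5 (n = 4). It differed from control by -6.88 percentage points at day 1 and -16.6 at day 5, with p = 0.0159 each in an exact two-sided permutation test (adjusted p = 0.0238 over 3 comparisons). Day 5 differed from day 1 by -9.77 points (exact permutation p = 0.0286, adjusted p = 0.0286). These are the smallest p-values that groups of these sizes allow. The share is computed from the *Dynll2* values given above, which did not overlap between the groups. Its tests are therefore not evidence separate from the *Dynll2* result. Without any 1 library the difference stayed between -8.2 and -5.7 points at day 1 and between -18.0 and -15.8 points at day 5. *Dynll1* was below *Dynll2* in the control mean (444 ± 27.8 against 528 ± 19.7 TPM) and above it at day 5 (492 ± 57.9 against 296 ± 18.9 TPM).

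**Figure D5:**
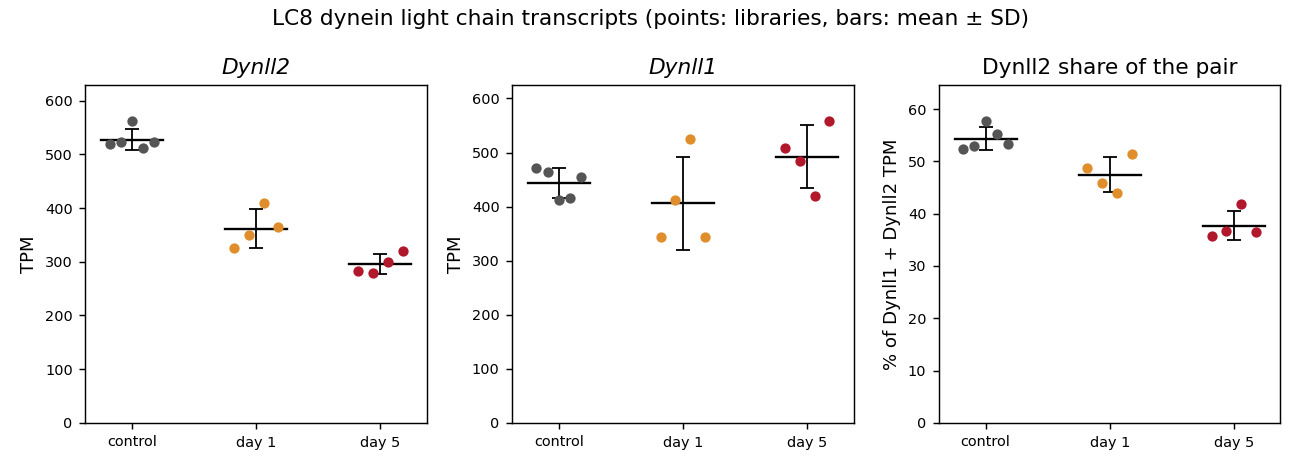
TPM of *Dynll2* and *Dynll1* and the *Dynll2* share of their sum (percent) in each library (points), with mean and SD of 5 control IgG, 4 day 1 MN and 4 day 5 MN libraries; axes start at 0. *Dynll2* and its share fall from control to day 1 to day 5 without overlap, and the *Dynll1* groups overlap.

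The other light chains were not called in any comparison. *Dynlrb1*, the roadblock light chain, had 224 ± 6.51 TPM in control and 248 ± 9.81 TPM at day 5 (0.18, adjusted p = 0.0664), and the Tctex light chain *Dynlt3* had 112 ± 2.63 and 110 ± 2.87 TPM (0.00, adjusted p = 0.988). *Dynlt1a*, *Dynlt1b*, *Dynlt1c* and *Dynlt1f* are near copies in 1 cluster and share 77.0% to 93.5% of their 31-base words with other genes, and the words of the pseudogene *Dynlt1-ps1* are all shared. How reads were divided among them is uncertain, and *Dynlt1f* passed the adjusted p but not the fold threshold at day 5 (0.27, adjusted p = 0.0406). The 5 copies together had 316 ± 34.2 TPM in control, 318 ± 19.3 TPM at day 1 and 366 ± 41.9 TPM at day 5. The largest estimate of the group was that of *Dynlt2a1* (-0.84, SE 0.48, adjusted p = 0.366), which was listed at 0 in 1 control library and 2 day 5 libraries and shares 94.7% of its words. *Dynlt2a2* (-0.21), *Dynlt2b* (0.09) and *Dynlt4* (0.42) had adjusted p-values of 0.619 or above at day 5.

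The 4 cilium kinesins and the 4 *Dync2* genes had mean control levels of 1.55 to 29.0 TPM. *Dync2* genes encode subunits of dynein-2, the motor of retrograde transport in cilia. The most abundant was *Dync2li1* (29.0 ± 2.66 TPM in control, 28.6 ± 0.648 TPM at day 5). *Dync2i1*, an intermediate chain, had 9.80, 9.17, 8.83, 10.5 and 12.3 TPM in control libraries, 7.59, 7.98, 11.0 and 8.40 TPM at day 1, and 7.34, 6.21, 8.03 and 6.62 TPM at day 5. Its day 5 libraries lay below all control libraries, but it missed the threshold (-0.46, SE 0.13, adjusted p = 0.0558). The 4 cilium kinesins summed to 11.0 to 15.7 TPM in control libraries and 10.3 to 13.2 TPM at day 5. *Kif7*, the kinesin of Hedgehog signalling, was the highest at 7.66 ± 1.78 TPM in control, and *Kif19a* had the largest estimate (-0.56, SE 0.35, adjusted p = 0.427). *Foxj1* and *Dnah5*, which mark cells with motile cilia, did not exceed 0.35 and 0.0439 TPM in any library, but the other 2 markers in that list were detected, *Ccdc39* at 1.37 to 3.76 TPM and *Rsph1* at up to 2.66 TPM. In limma 0 of these 2 were called or had an unadjusted p under 0.05.

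Among the other kinesins, *Kif21a* (chr15:90817437-90934218), an inhibitor of microtubule growth at the cell cortex, was the only one called. It had 2.72, 3.97, 2.61, 3.58 and 4.82 TPM in control libraries, 3.33, 4.68, 5.31 and 5.26 TPM at day 1, and 2.14, 2.49, 2.32 and 2.23 TPM at day 5. Its day 5 libraries were below all others, and the call was made between the days (-0.87, adjusted p = 0.0315) and not against control (-0.47, adjusted p = 0.164). It was kept in 6 of the 13 fits that left out a library and lost without day 1 replicate 2, 3 or 4 or any day 5 library (-1.01 to -0.81, adjusted p 0.0135 to 0.0985). *Kif12*, a kinesin of kidney and liver epithelia, had 6.19 ± 2.18 TPM in control, 8.54 ± 1.99 TPM at day 1 and 4.90 ± 1.78 TPM at day 5 and was not called. The tubular markers moved in the same direction between the days, with 10 of 10 lower at day 5 than at day 1 (median -0.77). Of the 10, 2 were called lower, against 0.398% of all tested genes. The part of tubular RNA in these values was not tested. *Kif26a*, the most abundant of this group, had 16.9 ± 1.76 and 15.4 ± 1.77 TPM, and *Kif21b* (-0.23) and *Kif2a* (0.02) were not called.

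The 17 symbols below the filter were mostly kinesins of neurons and cilia or copies of other genes. *Kif5a* and *Kif5c*, the neuronal relatives of *Kif5b*, did not exceed 1.41 and 2.69 TPM, and *Kif1a*, which carries synaptic vesicle precursors, did not exceed 1.29 TPM. *Kif17*, *Kif19b*, *Kif26b*, *Kif27*, *Kif28*, *Kif6*, *Dynlrb2* and *Dynlt5* stayed under 1 TPM in every library, *Dynlt2a3* reached 1.65 TPM, and *Kif4-ps* reached 0.0427 TPM. *Kif2b*, *Kif22-ps* and *Kifc5c-ps* were listed at 0 throughout. Just inside the filter, *Dynlt4* reached 1 TPM in 4 libraries, as did *Kif11*, *Kif18b* and *Kif4*, and *Dynlt2a1* in 5.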

How the data were processed

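Glomerular RNA of 13 mice was sequenced by the study (paired-end reads on an Illumina NovaSeq). Per the submitters' processing notes and the methods, the authors checked reads with FastQC 0.11.9, trimmed them with Trimmomatic 0.39 and quantified them with kallisto 0.46.2 against GRCm39. The deposited values are TPM per gene symbol, rescaled by the authors within each library, so depth and counting error are unknown. How the authors combined transcripts into genes is not given in the sources used here. Groups and replicate numbers were taken from the sample titles. Libraries of a group are separate mice.

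Libraries were scaled by median-of-ratios factors (0.954 to 1.04, from 15772 genes) before log2(TPM + 0.5) was taken. The 14322 genes that reached 1 TPM in 4 or more libraries were fitted in limma 3.58.1 (R 4.3.3) with a mean-variance trend and Benjamini-Hochberg adjustment within each contrast. The procedure was tested on simulated data. The *Dynll2* share was tested by exact permutation (SciPy 1.17.1). Shared 31-base words were counted in GENCODE vM39 transcripts, since kallisto assigns reads by such words. Alternatives changed the pseudocount, scaling, filter, variance model, samples in the fit, block, threshold and libraries, and leaving out libraries for the *Dynll2* share was added after seeing the data. The 60 genes, their groups and the partner and marker lists were chosen with earlier results of these data known. Named with values were called genes, the largest change and highest level in each group, all *Dync1* and *Dctn* genes, near-identical copies and genes near the filter. Python 3.11.15 with matplotlib 3.10.9 made the plots.

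Whether replicate numbers pair the mice is not stated in the labels. Of 12 pairs of same-numbered libraries in different groups, 0 had deviations correlated above 0.1 (-0.0562 to 0.0913). Pairs with different numbers lay between -0.143 and 0.146. Low correlations cannot show that the mice were unmatched.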

Additional observations from a re-analysis of the deposited data

Results flagged for a closer look

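Single libraries stood apart from the rest of their group in 4 of 36 groups examined (12 genes in 3 groups), where chance gives about 1 in 20. *Dynll2* was highest in control replicate 3 (562 TPM, the others 512 to 523), *Kif22* lowest in control replicate 5 (1.34 TPM, the others 2.71 to 3.07), *Kifc5b* lowest in day 1 replicate 2 (1.31 TPM, the others 2.10 to 2.20) and *Kifc2* highest in day 5 replicate 2 (6.70 TPM, the others 6.18 to 6.26).

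In limma's test of the difference between the days, 9 genes passed both the adjusted p and the fold threshold, against 1.81% of all tested genes. *Dynll2* passed the adjusted p but not the fold threshold (-0.30, adjusted p = 0.0286). Of the 9, *Kif11*, *Kif18b* and *Kif4* passed the filter only through the day 5 libraries. The log2 difference of day 5 from day 1 was 2.48 for *Kif18b*, 2.41 for *Kif11*, 2.37 for *Kif20a*, 2.12 for *Kif22*, 2.03 for *Kif4*, 1.97 for *Kif23* and 0.78 for *Kif18a*, and it was -0.87 for *Kif21a* and -0.52 for *Kifc2*.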

How the results depend on the processing

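No direction reversed under any alternative. Of 453 values of called genes under the alternatives, 380 were still called and 73 were not. The median of the mitotic kinesins at day 5 was 1.92 with a pseudocount of 0.1 and 1.37 with 1 (1.54 to 1.80 without single libraries), and that of transport kinesins, dynein-1 and dynactin (-0.027) was -0.062 without scaling. With a filter of 1 TPM in all 13 libraries, which removes *Kif11*, *Kif18b* and *Kif4* among others, 6 genes were called at day 5 (4 higher), and 4 were higher at day 5 than at day 1. Under the other changes of pseudocount, scaling, filter, trend and fitted groups, 9 to 11 genes were called at day 5 (7 to 9 higher and 2 lower), fewest without scaling and with quantile normalization, and 8 to 10 between the days. The calls lost, beside those of *Dynll2* at day 1, were *Kif2c* at day 5 with a pseudocount of 0.1, without scaling, with quantile normalization, without a filter or trend or with the compared groups alone, *Kifc5b* at day 5 without scaling, without a filter or with the compared groups alone, *Kif18a* at day 5 with quantile normalization, *Kif18a* between the days with a pseudocount of 0.1, quantile normalization or the compared groups alone, *Kif21a* between the days without a filter, and *Kifc2* between the days with a pseudocount of 1 or quantile normalization. With the adjusted p alone, 4 genes were lower at day 5. Between day 5 and day 1, 1 gene was lower with a pseudocount of 1, with quantile normalization or without a filter.

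Without single libraries, 8 to 11 genes were called at day 5 (6 to 9 higher and 2 lower), 6 to 10 between the days (6 to 8 higher and 0 to 2 lower), and 0 to 1 at day 1. The filter was still set on all 13 libraries in these fits, which kept *Kif11*, *Kif18b* and *Kif4* in those without a day 5 library. No gene was lower between the days without day 1 replicate 2 or 3 or day 5 replicate 3 or 4, and 0 were called at day 1 without control replicate 3 or 5 or day 1 replicate 1 or 2. *Dynll2* at day 1 was also lost where the fit held the compared groups alone (0 called). Its adjusted p over all alternatives reached 0.0524. The causes were not tested.

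With the replicate number as a block, 0 genes were called at day 1, 8 at day 5 (6 higher and 2 lower) and 8 between the days, and *Kif2c*, *Kifc5b* and *Kif18a* lost their calls. Whether the numbers pair the mice is not known. Read depth is unknown, which limits the transcripts near 1 TPM most.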
